A study of Mus musculus with 26 samples.

Results

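The elastic fibre and crosslinking genes described here are Eln, Fbn1, Fbln1, Fbln2, Fbln5, Emilin1, Lox, Loxl1, Loxl2 and Loxl3, 10 of the 18198 genes in the deposited table. They were chosen by name with earlier results of these data known, so their counts set beside all genes are a description. Each was found once in the table by its Ensembl identifier, and all 10 passed the filter on low values. RNA was sequenced from 26 mouse libraries, 2 for each of 13 groups that follow the reprogramming of fibroblasts into pluripotent cells. The reference groups were mouse embryonic fibroblasts (MEF, passage 2, grown in serum), embryonic stem cells (ESC, passages 20 to 24, of CBA/CaJ X C57BL/6J origin) and induced pluripotent stem cells (iPSC, passages 5 to 8). ESC and iPSC were both kept in N2B27 medium with 2i inhibitors and LIF. The other groups were MEF infected with retroviruses for OSK (the factors Pou5f1, Sox2 and Klf4) and sampled on days 0, 1, 3, 5 and 7, the same with cJun added (OSK-cJun) on days 0, 1, 3 and 7, and OSK with a lentiviral hairpin against Sap30 (OSK-shSap30) on day 7. The labels name iCD1 or ESC medium for infected cells without saying which library had which, and do not say whether replicates came from separate cultures or how day 0 was taken.

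Elastic fibres give stretch and recoil to skin, vessels and lung, and fibroblasts lay them down on a scaffold of microfibrils. Fibrillin-1, from Fbn1, forms the microfibrils, fibulins and emilin-1 link them to tropoelastin, the Eln product, and lysyl oxidases from Lox and its relatives oxidise lysines so that elastin and collagen become crosslinked. Mouse embryonic fibroblasts are a common source of these matrix proteins, and loss of the fibroblast programme is an early step of reprogramming.

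All 10 genes had their highest group mean in MEF or in a day 0 group. For 7 of them that group was MEF, for Fbln5 and Loxl3 it was OSK day 0, and for Fbn1 it was OSK-cJun day 0. ESC had the lowest mean of the 13 groups for 7 genes (Fbn1, Fbln2, Emilin1, Lox, Loxl1, Loxl2 and Loxl3). The other genes were lowest elsewhere: Fbln5 on OSK day 7, Fbln1 on OSK-cJun day 7, and Eln on OSK-cJun days 1, 3 and 7, where it was listed at 0 in all libraries. Values below are the deposited scores, whose distribution is made equal across libraries (median 61, highest value 21544), so a value gives a gene's rank within its library. The highest values come in shared steps: Fbn1 had the value 7728 in 6 libraries.

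Labels were checked on the factors themselves. Pou5f1 was 2 and 0 in MEF, and already 11662 and 8974 on OSK day 0 and 6923 and 7715 on OSK-cJun day 0. Jun was between 4616 and 8981 in the OSK-cJun libraries and at most 1010 elsewhere, and Sap30 was 20 and 41 with the hairpin against 301 and 378 on OSK day 7. Summed fibroblast markers (11 genes) ran from 73002 to 77682 in MEF and from 169 to 651 in ESC. OSK day 5 stood apart between its own libraries, with Pou5f1 at 656 and 21544 and fibroblast sums from 12775 to 31362. Its values are given as a description, it enters no comparison of its own, and the main counts were repeated without it.

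The windows before the starts of Fbln5 and Fbln1 are shown because Fbln5 departed from the rest over the course with added cJun and Fbln1 across pluripotent cells. Fbln2 was also called with cJun, on day 3, but all 250 bases of its window lie in annotated exons, so it is not shown. Both windows shown are the 250 bases upstream of a RefSeq start on GRCm38.p6, printed 5′ to 3′ on the gene's strand. Fbln5 is at chr12:101819120-101819369 on the minus strand and Fbln1 at chr15:85205699-85205948 on the plus strand.

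Fbln5: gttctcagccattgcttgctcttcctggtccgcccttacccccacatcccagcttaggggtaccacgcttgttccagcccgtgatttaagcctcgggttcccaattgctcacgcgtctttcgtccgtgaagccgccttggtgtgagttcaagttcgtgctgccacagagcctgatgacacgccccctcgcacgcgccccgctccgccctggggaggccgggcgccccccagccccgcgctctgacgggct
Fbln1: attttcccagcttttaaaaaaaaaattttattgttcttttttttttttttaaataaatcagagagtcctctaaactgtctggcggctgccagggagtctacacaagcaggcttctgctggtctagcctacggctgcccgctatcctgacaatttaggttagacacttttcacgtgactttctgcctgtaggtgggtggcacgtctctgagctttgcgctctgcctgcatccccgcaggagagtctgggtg

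No letters are in capitals, because neither motif searched was found. RefSeq gave 7 promoters for 5 of the 10 genes (Fbn1, Fbln1, Fbln2, Fbln5 and Emilin1), each of 250 bases before and 50 after the start. The AP-1 motif TGANTCA, the site of Jun and Fos proteins, and the TEAD motif GGAATG were searched on both strands and were in 0 of the 7. Of all 32851 promoters in the table, 7.81% held TGANTCA and 14.7% held GGAATG. The Fbln5 window shown was 65.2% G and C and the Fbln1 window 46.4%. Each gene had another RefSeq start, whose window was 49.6% for Fbln5 and 62.4% for Fbln1, so the order was reversed there. The windows shown are those that hold 0 bases of annotated exons, and the other windows hold 1 (Fbln5) and 59 (Fbln1).

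Elastin is the elastic core itself. Eln (ENSMUSG00000029675, chr5:134702593-134747323, minus strand of GRCm38) had values of 1278 and 936 in MEF. On day 0 it was already 15 and 28 with OSK and 18 and 19 with OSK-cJun. No library after day 0 exceeded 12. Every MEF library was far above every other library, and the remaining groups lay close to the bottom of the scale, where Eln was listed at 0 in 9 libraries.

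Fibrillin-1 forms the microfibril scaffold. Fbn1 (ENSMUSG00000027204, chr2:125300594-125507993, minus strand) had values of 6131 and 7728 in MEF, 5497 and 7728 on OSK day 0, 6131 and 8988 on day 1, 2721 and 3276 on day 3, and 1590 and 1179 on day 7. With cJun it had 7728 and 8988 on day 0, 7728 in both libraries on day 1, 6131 and 7728 on day 3, and 3777 and 4020 on day 7. MEF, both day 0 groups, both day 1 groups and OSK-cJun day 3 overlapped, and OSK day 7 lay below all of them. Values of 282 and 640 in iPSC stood between OSK day 7 and the 15 and 42 of ESC. The predicted gene Gm9913 on the other strand covers 20.1% of the Fbn1 exons, and the library kit does not mark strand, so reads there cannot be told apart.

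The fibulins bind elastin and the microfibrils, and fibulin-5 guides elastin onto them. Fbln5 (ENSMUSG00000021186, chr12:101746565-101819055, minus strand) had values of 6124 and 11668 on OSK day 0, against 3269 and 5489 in MEF. They were 2469 and 2151 on day 1, 161 and 132 on day 3, 529 and 86 on day 5, and 55 and 22 on day 7. With cJun the values were 4308 and 6929, 1502 and 1825, 481 and 512, and 700 and 453 on days 0, 1, 3 and 7. Both cJun libraries of day 7 were above both OSK libraries of day 7, while those of day 0 overlapped. ESC (69 and 48) and iPSC (80 and 118) were near OSK day 7.

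Fbln2 (ENSMUSG00000064080, chr6:91212455-91272540, plus strand) encodes fibulin-2, which binds fibrillin and tropoelastin. It had values of 6116 and 11662 in MEF, 3406 and 4302 on OSK day 0, 1985 and 2121 on day 1, 1416 and 1699 on day 3, 879 and 863 on day 5, and 784 and 1222 on day 7. With cJun they were 4609 and 4007, 2032 and 1792, 369 and 587, and 593 and 556 on days 0, 1, 3 and 7. The courses overlapped on days 0 and 1 and did not overlap on days 3 and 7. In iPSC the values were 869 and 1649, above the 36 and 80 of ESC.

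Fbln1 (ENSMUSG00000006369, chr15:85205949-85286535, plus strand) encodes fibulin-1, found in elastic fibres and basement membranes. MEF had values of 480 and 807, which overlapped the 520 and 498 of iPSC, and ESC had 285 and 549, which overlapped both. Along OSK it had 390 and 354, 223 and 187, 114 and 116, 54 and 149, and 309 and 387 on days 0, 1, 3, 5 and 7. Day 7 thus overlapped day 0, and day 3 lay below both. With cJun the values were 326 and 310, 259 and 182, 190 and 152, and 94 and 105, with day 7 the lowest.

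Emilin-1 sits between elastin and the microfibrils. Emilin1 (ENSMUSG00000029163, chr5:30913402-30921277, plus strand) had values of 1017 and 963 in MEF, 586 and 626 on OSK day 0, 328 and 432 on day 1, 190 and 173 on day 3, 211 and 119 on day 5, and 124 and 62 on day 7. The OSK-cJun values overlapped those of OSK on days 0 and 1 and were 197 and 222 on day 3 and 130 and 139 on day 7. ESC, at 32 and 21, lay below every other library, and iPSC, at 92 and 94, lay within the range of OSK day 7.

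Lysyl oxidase is the founding enzyme of the crosslinking family. Lox (ENSMUSG00000024529, chr18:52516067-52529867, minus strand) had a value of 11676 in both MEF libraries. Along OSK it had 5038 and 7733, 1423 and 1331, 150 and 273, 315 and 132, and 55 and 28 on days 0, 1, 3, 5 and 7. With cJun it had 5038 and 4629, 483 and 327, 45 and 45, and 47 and 9 on days 0, 1, 3 and 7. The iPSC libraries, at 916 and 2266, were above every library from day 3 on and far above the 2 and 44 of ESC.

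LOXL1 is the relative most tied to elastin in elastic tissues. Loxl1 (ENSMUSG00000032334, chr9:58287738-58313186, minus strand) had values of 2465 and 2188 in MEF, 1043 and 990 on OSK day 0, 138 and 88 on day 1, 29 and 18 on day 3, 23 and 21 on day 5, and 13 and 6 on day 7. Its OSK-cJun values were 1941 and 2074, 230 and 147, 47 and 33, and 7 and 13. Day 1 was below day 0 in every library of both courses. In iPSC it had 125 and 249, and in ESC 1 and 6.

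LOXL2 acts on collagen IV and other matrix proteins. Loxl2 (ENSMUSG00000034205, chr14:69609068-69695834, plus strand) had values of 4622 and 6935 in MEF, 3037 in both OSK day 0 libraries, 1827 and 1736 on day 1, 319 and 240 on day 3, 253 and 95 on day 5, and 158 and 88 on day 7. With cJun it had 3275 and 2623, 1036 and 793, 218 and 177, and 171 and 95. Along OSK its largest step between sampled days was from day 1 to day 3, and that of Loxl1 was from day 0 to day 1. It had 441 and 761 in iPSC and 13 and 31 in ESC.

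LOXL3 is a further lysyl oxidase relative. Loxl3 (ENSMUSG00000000693, chr6:83034173-83052562, plus strand) had values of 570 and 1345 in MEF and 919 and 1251 on OSK day 0, which overlapped. On OSK days 1, 3, 5 and 7 it had 113 and 192, 169 and 169, 181 and 151, and 94 and 140. With cJun it had 962 and 1151, 151 and 190, 152 and 277, and 212 and 285. Its group means from day 1 on lay between 117.0 and 248.5 in both courses. The lower values were 32 and 49 with shSap30, 48 and 90 in iPSC, and 7 and 10 in ESC, and Htra2 on the other strand covers 11.6% of its exons.

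**Figure D1:**
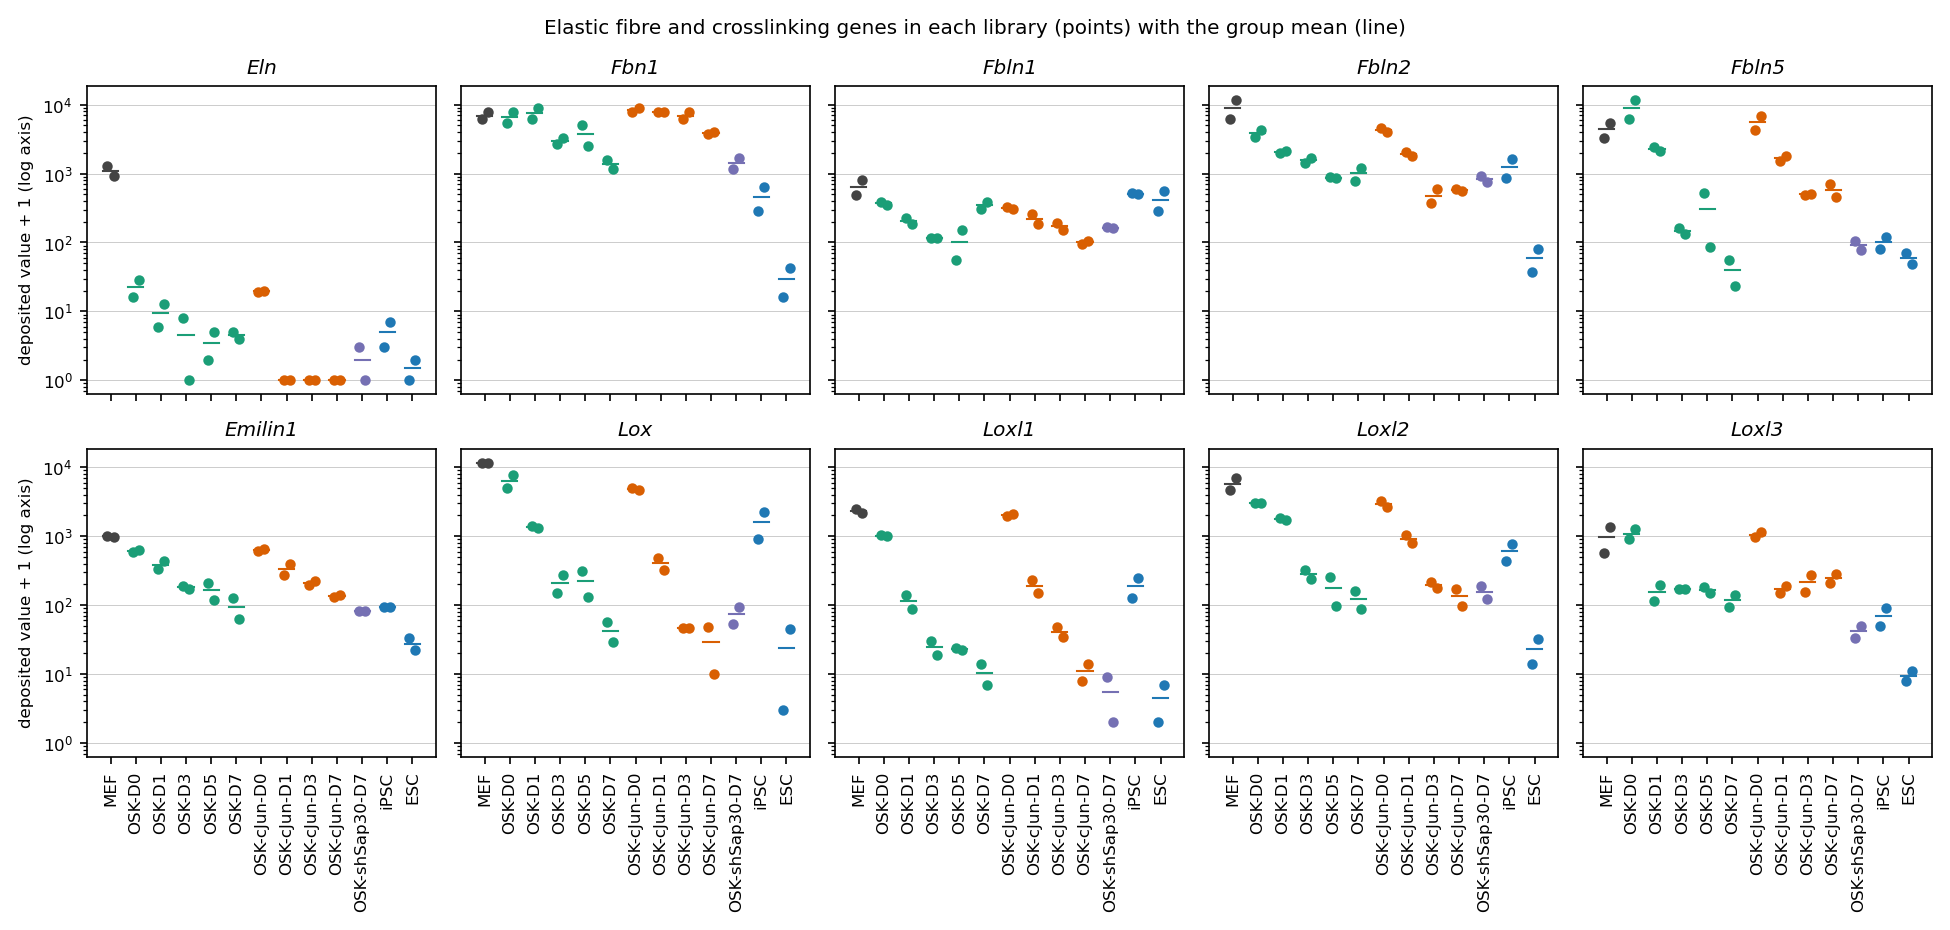
Deposited value plus 1 of each gene (log axis) in the 13 groups, with 1 point per library and a line at the group mean; grey is MEF, green OSK, orange OSK-cJun, purple OSK-shSap30 and blue iPSC and ESC. Eln drops from MEF (1278 and 936) to day 0 (15 and 28), and Fbln1 is the gene whose MEF, iPSC and ESC points overlap.

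Per kilobase of annotated exon, the mean MEF score was highest for Lox (2444), followed by Fbln2 (1395), Loxl2 (1069), Loxl1 (706), Fbln5 (634) and Fbn1 (571). Loxl3 (208.0), Emilin1 (201), Fbln1 (147) and Eln (137) were lower. On OSK day 0 the order on this scale changed: Lox (1336) and Fbln5 (1287) led, and Eln was last at 2.66. The score is not a count, and the labels do not say whether it already allows for gene length. These orders are therefore only a description.

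Pluripotent cells were first compared with fibroblasts. In ESC 9 of the 10 genes were lower than in MEF, by log2 folds from -5.20 (Emilin1, standard error 0.295, adjusted p from limma 2.03e-10) to -9.97 (Lox, standard error 0.911, adjusted p 1.16e-07). Fbln1 was not called (log2 fold -0.65, standard error 0.364, adjusted p 0.141), but was called lower without ESC replicate 2 (-1.12, adjusted p 0.0351) and with centring on housekeeping genes (-1.06, adjusted p 0.025). Over all 16038 genes tested, 20.6% were called lower and 22.4% higher in this comparison, and the median log2 fold was -7.65 for the 10 genes and 0.13 for all genes. In bulk RNA, fewer cells of a type and less RNA per cell cannot be told apart.

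In iPSC the 9 genes other than Fbln1 were lower than in MEF, a comparison that shares its MEF libraries with the one above, against 19.7% of all genes called lower and 20.2% higher. Eln had the largest difference (log2 fold -7.90, standard error 0.824, adjusted p 6.11e-07) and Fbln2 the smallest of the 9 (-2.82, standard error 0.365, adjusted p 6.39e-06). Fbln1 again was not called (-0.29, adjusted p 0.537). The Lox call (-3.02, adjusted p 0.011) was lost without iPSC replicate 1 (-2.37, adjusted p 0.105).

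iPSC and ESC, grown in the same medium, were then compared directly. In iPSC 7 genes were higher than in ESC: Lox (log2 fold 6.96, standard error 0.911, adjusted p 8.05e-05), Loxl1 (5.57), Loxl2 (4.78), Fbln2 (4.45), Fbn1 (4.02), Loxl3 (2.83) and Emilin1 (1.80). Among all genes 4.57% were called higher and 1.65% lower. Eln (1.70, adjusted p 0.284), Fbln5 (0.75, adjusted p 0.598) and Fbln1 (0.36, adjusted p 0.696) were not called. In a fit of these 4 libraries alone the Lox call was lost (adjusted p 0.0685).

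Markers of fibroblasts moved with this difference. The median of the 10 genes was 6.50% of the MEF mean in iPSC replicate 1 and 10.1% in replicate 2, and the median of the 11 fibroblast markers was 5.71% and 11.8%. In ESC the medians were 0.315% and 0.753% for the 10 genes and 0.376% and 0.525% for the markers. None of the 11 markers was at 0 in both libraries of iPSC, and none in both of ESC. Their sum was 7315 to 13439 in iPSC against 169 to 651 in ESC. Most of the iPSC sums came from Col1a1 (2619 and 5023), Col1a2 (2725 and 4629) and Col3a1 (1229 and 2550). The part of these markers in the result was not tested.

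**Figure D2:**
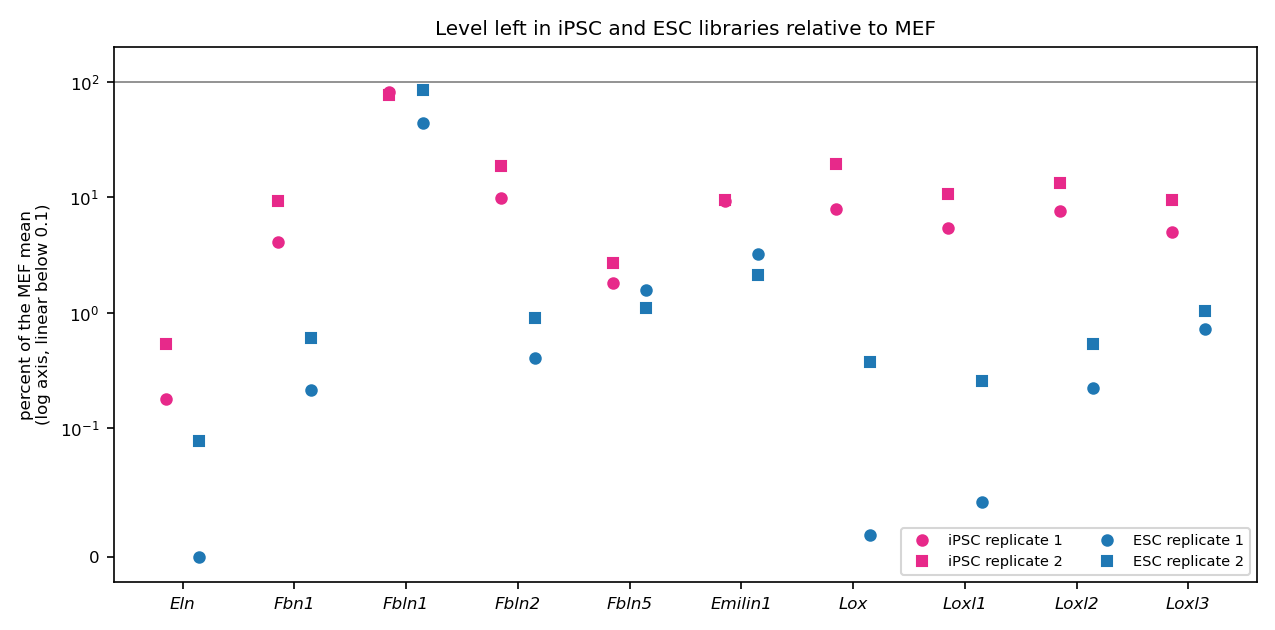
Level of each gene in the iPSC (pink) and ESC (blue) libraries as a percentage of the MEF mean, on an axis that is logarithmic above 0.1 and linear below it; circles are replicate 1, squares replicate 2, and the grey line is 100%. Both iPSC points lie above both ESC points for every gene except Fbln1, whose iPSC points are at 80.8% and 77.4%. Eln and Fbln5 are among these genes though not called between iPSC and ESC, and the share over all genes was not counted.

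OSK day 0 was compared with MEF. Eln was the 1 gene called, lower by a log2 fold of -5.67 (standard error 0.824, adjusted p 0.000232), and 2.06% of all genes were called lower and 4.92% higher. Fbln2 (-1.14, adjusted p 0.0603) and Loxl1 (-1.19, adjusted p 0.279) were not called. Without MEF replicate 1, Fbln2 was called as well (-1.61, adjusted p 0.0196).

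Successive sampled days of the OSK course were compared next. From day 0 to day 1, 2 genes fell, Loxl1 (log2 fold -3.19, standard error 0.619, adjusted p 0.00359) and Loxl3 (-2.86, standard error 0.405, adjusted p 0.000294), with 3.12% of all genes called lower and 3.18% higher. Lox (-2.18, adjusted p 0.171) and Fbln5 (-1.88, adjusted p 0.07) were not called, although in a fit of the compared libraries alone both were (adjusted p 0.013 and 0.0305). Without OSK day 1 replicate 2 the Loxl1 call was lost (-2.87, adjusted p 0.06).

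From day 1 to day 3, 4 genes fell: Fbln5 (log2 fold -3.97, standard error 0.609, adjusted p 0.000572), Loxl2 (-2.68, standard error 0.458, adjusted p 0.00127), Loxl1 (-2.22, adjusted p 0.0335) and Emilin1 (-1.05, adjusted p 0.0343). Of all genes 3.01% were called lower and 3.55% higher. Lox (-2.76, adjusted p 0.0759) and Fbn1 (-1.31, adjusted p 0.0697) were not called, and both were in a fit of the compared libraries alone (adjusted p 0.00649 and 0.0336). The Loxl1 and Emilin1 calls were each lost when any 1 of the 4 libraries was left out, with adjusted p from 0.0674 to 0.241 for Loxl1 and from 0.0793 to 0.219 for Emilin1.

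From day 3 to day 7, Fbln1 rose (log2 fold 1.58, standard error 0.364, adjusted p 0.0109), with 3.37% of all genes called higher. Fbln5 (-2.03, adjusted p 0.0416) and Emilin1 (-1.04, adjusted p 0.031) fell, with 4.21% called lower. All 3 calls were lost without OSK day 3 replicate 1, without day 3 replicate 2, or without day 7 replicate 2, where the adjusted p of Fbln1 was 0.092, 0.0511 and 0.117.

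Over the whole course, from day 0 to day 7, 9 genes fell and Fbln1 was not called (log2 fold -0.10, standard error 0.364, adjusted p 0.885). Among all genes 12.6% were called lower and 11.3% higher. The falls were largest for Fbln5 (-7.88, standard error 0.609, adjusted p 9.83e-08), Lox (-7.28, standard error 0.911, adjusted p 1.36e-05) and Loxl1 (-6.68, standard error 0.619, adjusted p 4.33e-07). They were smallest for Fbln2 (-1.97, standard error 0.365, adjusted p 0.000477). Eln (-2.27, adjusted p 0.0434), with means of 21.5 and 3.5, lost its call when any 1 of its 4 libraries was left out (adjusted p 0.0692 to 0.222).

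As shares of the day 0 mean, 5 genes were below 50% on OSK day 1, all 10 on day 3 and 9 on days 5 and 7. These counts include genes that were not called, and the share over all genes was not counted. On day 7, Fbln5 was at 0.433%, Lox at 0.650%, Loxl1 at 0.935% and Loxl2 at 4.05%, while Fbn1 was at 20.9% and Fbln1 at 93.5%. Fibroblast marker sums went from between 49469 and 59663 on day 0 to between 11318 and 12238 on day 7, and smooth muscle sums (5 genes) from between 3445 and 4301 to between 145 and 186, with Cnn1 at 0 in both day 7 libraries. Their part in the result was not tested.

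iPSC were also set against OSK day 7. Higher in iPSC were 3 crosslinking genes, Lox (log2 fold 5.16, standard error 0.911, adjusted p 0.000281), Loxl1 (4.16, standard error 0.619, adjusted p 4.85e-05) and Loxl2 (2.29, standard error 0.458, adjusted p 0.000763), with 14.7% of all genes called higher. Fbn1 was lower (-1.69, standard error 0.428, adjusted p 0.00445), with 15.7% called lower. The Fbn1 call was lost without iPSC replicate 1 (-1.10, adjusted p 0.0945). Fbln5 (1.45, adjusted p 0.0675) was not called but was without OSK day 7 replicate 1 (2.09, adjusted p 0.0323) or without the OSK day 5 libraries (adjusted p 0.0089).

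The effect of added cJun, a subunit of AP-1, was tested against OSK of the same day, so the comparisons below share no libraries between days. On day 0 none of the 10 genes was called, none had an unadjusted p below 0.05, and 0.0748% of all genes were called in either direction. On day 1 none was called by limma and 2 had an unadjusted p below 0.05, Eln and Loxl2, with 1.98% of all genes called (1.24% higher and 0.742% lower). Eln was listed at 0 in both cJun libraries against 5 and 12 without (adjusted p 0.0544). In a fit of the compared libraries alone 1 gene was called, Lox (-1.79, adjusted p 0.0333).

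On day 3 Fbln2 was lower with cJun (log2 fold -1.73, standard error 0.365, adjusted p 0.00488), with 3.54% of all genes called lower and 4% higher. Fbn1 (adjusted p 0.0915), Fbln5 (1.76, adjusted p 0.0843) and Lox (log2 fold -2.14, adjusted p 0.175) were not called. In a fit of the compared libraries alone Fbn1 and Fbln5 were called higher (adjusted p 0.0259 and 0.00788) and Lox lower (adjusted p 0.0185). The Fbln2 call was lost without OSK-cJun day 3 replicate 1 (-1.40, adjusted p 0.083) or OSK day 3 replicate 2 (-1.60, adjusted p 0.0561).

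On day 7 Fbln5 was higher with cJun (log2 fold 3.97, standard error 0.609, adjusted p 0.000334), as was Fbn1 (1.51, standard error 0.428, adjusted p 0.0225), with 6.76% of all genes called higher. Fbln1 was lower (-1.79, standard error 0.364, adjusted p 0.00257), with 5.03% called lower. The crosslinking genes Lox (-0.88, adjusted p 0.584), Loxl1 (0.10, adjusted p 0.967) and Loxl2 (0.11, adjusted p 0.931) were not called, and Loxl3 was 1.09 (adjusted p 0.0755). Fbn1 lost its call without OSK-cJun day 7 replicate 1 or 2 or OSK day 7 replicate 2 (adjusted p 0.101, 0.089 and 0.156). Fibroblast marker sums were 35472 to 36277 with cJun and 11318 to 12238 without on this day, mostly from Col1a2, which was at the highest value of the scale (21544) in both cJun libraries, and Col3a1. The other 9 markers summed to 2251 to 3056 with cJun and 1142 to 2255 without. One by one, 6 of the 11 markers were above OSK in both cJun libraries (Col1a2, Col3a1, Pdgfra, Twist1, Twist2 and Prrx1), none was below and 5 overlapped. By the same measure 4 of the 10 genes were above and 3 below, and the share over all genes was not counted. The part of the markers in the result was not tested.

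Within the OSK-cJun course 9 genes fell from day 0 to day 7, with 8.79% of all genes called lower, and Fbn1 was not called (log2 fold -1.10, adjusted p 0.076). Fbn1 was called lower too in a fit of the compared libraries alone (adjusted p 0.0122), with centring (0.0326) and with a pseudocount of 10 (0.0499). The falls ran from Fbln1 (-1.67, standard error 0.364, adjusted p 0.00254) to Lox (-7.78, standard error 0.911, adjusted p 9.65e-06). Fbln5 fell by 3.28 on the log2 scale with cJun, and without cJun its log2 fold was -7.88. The test of that difference (interaction) called Fbln5 (4.60, standard error 0.861, adjusted p 0.00764) and no other of the 10, with 2.46% of all genes called higher. Fbln1 was next (-1.57, standard error 0.515, adjusted p 0.0989) and was called in the fit without the OSK day 5 libraries (adjusted p 0.0285).

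The hairpin against Sap30, a subunit of the Sin3 corepressor complex, was compared with OSK on day 7, whose libraries also serve the cJun comparison of that day. Loxl3 was lower (log2 fold -1.51, standard error 0.405, adjusted p 0.019), at 32 and 49 against 94 and 140, with 4.92% of all genes called lower and 4.93% higher. Fbln1, at 167 and 161 against 309 and 387, was not called (-1.07, adjusted p 0.0564) but was without the OSK day 5 libraries (adjusted p 0.0141). Not called either was Fbln5 (1.33, adjusted p 0.155), at 105 and 76 against 55 and 22. Without the OSK day 5 libraries Fbln5 was called higher (adjusted p 0.0347). The Loxl3 call was lost without OSK day 7 replicate 2 (-1.23, adjusted p 0.185) or OSK-shSap30 replicate 1 (-1.21, adjusted p 0.126). In a fit of these 4 libraries alone its adjusted p was 0.0838. Fibroblast marker sums were 6584 to 7687 with the hairpin and 11318 to 12238 without. Without Col1a2 and Col3a1 they were 1742 to 1946 and 1142 to 2255, which overlapped. One by one, 3 of the 11 markers were below OSK in both hairpin libraries (Col1a2, Dcn and Lum), none was above and 8 overlapped. By the same measure 3 of the 10 genes were below and 1 above, and the share over all genes was not counted. The part of the markers in the result was not tested.

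**Figure D3:**
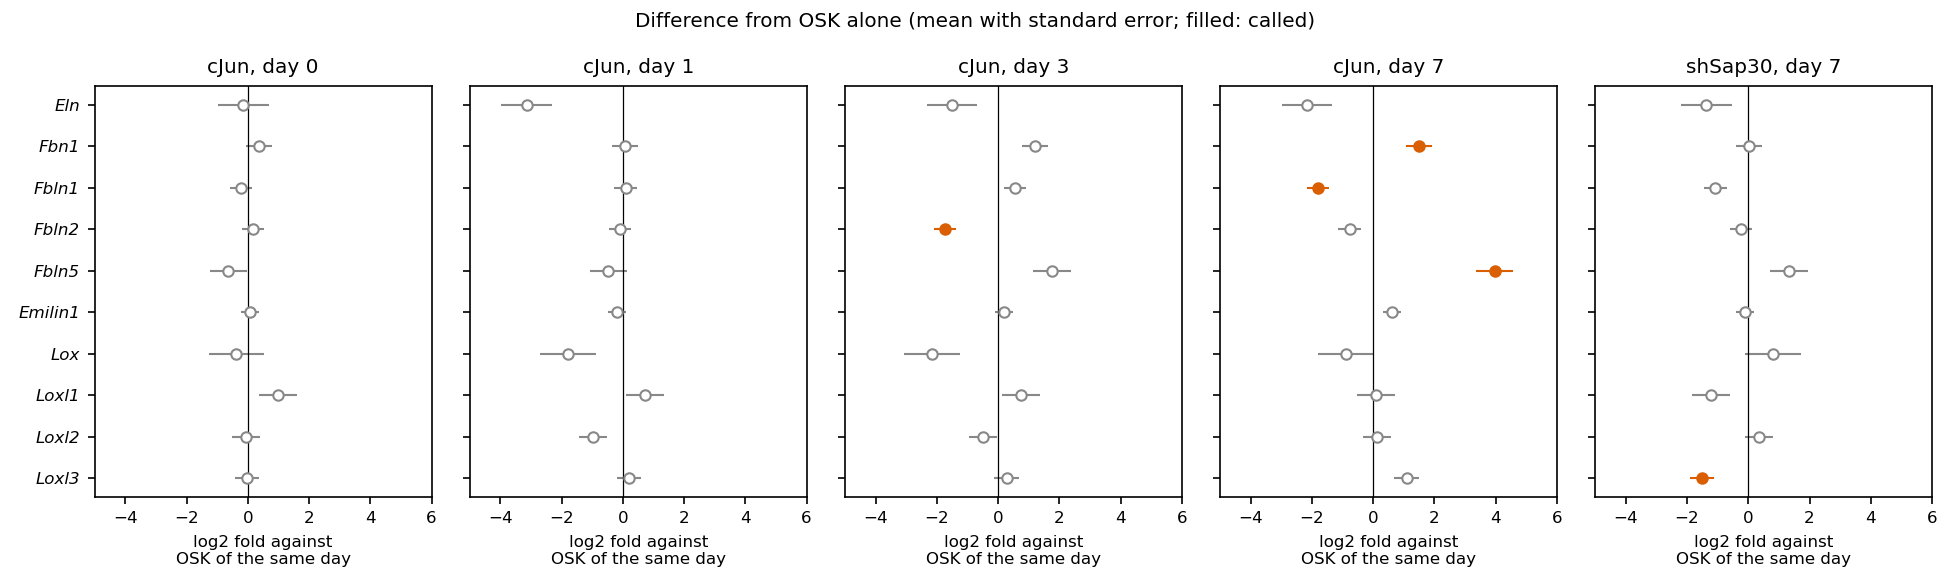
Log2 fold of each gene against OSK of the same day (points, with standard errors) for cJun on days 0, 1, 3 and 7 and for shSap30 on day 7; filled orange points were called and open grey points were not. Fbln5 (3.97) and Fbn1 (1.51) are to the right and Fbln1 (-1.79) to the left on day 7 with cJun; Eln is listed at 0 with cJun after day 0, so its points there depend on the pseudocount.

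Other genes of elastic fibres and microfibrils, 20 in a list of which 17 were tested, were counted in the same comparisons. From OSK day 0 to day 7, 13 fell (12.6% of all genes did) and none rose (11.3% of all genes did). The median log2 fold was -2.78, against -2.99 for the 10 genes and 0.06 for all genes. Efemp1, which encodes fibulin-3, fell by 6.05 (standard error 0.398, adjusted p 1.62e-08). Ltbp2, a latent TGF-beta binding protein, fell by 7.78 (standard error 0.668, adjusted p 1.83e-07). Mfap2, a microfibril glycoprotein, fell by 3.40 (adjusted p 6.11e-06). Against MEF, 15 of the 17 were lower in ESC (20.6% of all genes) and 15 in iPSC (19.7%), none was higher, and 9 were higher in iPSC than in ESC (4.57% of all genes). In OSK day 0 against MEF, Efemp1 was higher (3.68, adjusted p 1.3e-05) and Mfap4 lower (-3.86, adjusted p 0.00224). Against OSK of the same day, none of the 17 was called with cJun on day 0 (0.0748% of all genes in either direction). On day 1, 2 were higher and none lower (1.24% and 0.742% of all genes). On day 3, 3 were higher and 1 lower (4% and 3.54%), and on day 7, 3 higher and 2 lower (6.76% and 5.03%). Ltbp1 was higher on days 1, 3 and 7 (1.29, 1.45 and 1.85, adjusted p 0.00891, 0.000825 and 7.22e-05). Fbn2, the fetal fibrillin, was lower with cJun on day 3 (-2.16, adjusted p 0.00448) and higher with shSap30 (1.51, adjusted p 0.0308).

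Genes that support crosslinking, such as procollagen proteinases and copper transporters, numbered 13, of which 12 were in the table and tested. From OSK day 0 to day 7, 3 fell (12.6% of all genes did), Tll1 (-3.53), Loxl4 (-2.43) and Bmp1 (-1.74), and 1 rose (11.3% of all genes did), Slc31a1, a copper importer (1.16, adjusted p 0.00432), with a median of -0.63. Against MEF, 8 of the 12 were lower in ESC (20.6% of all genes) and 8 in iPSC (19.7%), and 5 were higher in iPSC than in ESC (4.57%). Bmp1, which activates lysyl oxidase, was higher in iPSC than in ESC (5.46, standard error 0.261, adjusted p 3.05e-10). With cJun, Pcolce, an enhancer of procollagen processing, was lower on day 1 (-1.19, adjusted p 0.0205) and higher on day 7 (1.16, adjusted p 0.00451). Tgm2, a transglutaminase, was lower with cJun on days 1 and 3 (-2.87 and -3.58, adjusted p 0.0342 and 0.00225). Loxl4 was higher on days 3 and 7 (1.47 and 1.42, adjusted p 0.0246 and 0.0203). Atp7a, which loads copper into lysyl oxidases, was higher with shSap30 (2.20, standard error 0.3, adjusted p 0.00026).

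Among 10 genes of elastin turnover, 3 fell over the OSK course (12.6% of all genes did), Mmp2 (-2.42), Ctsl (-1.47) and Mmp14 (-1.13), and Neu1 rose (1.03, adjusted p 0.0485), 1 of 10 against 11.3% of all genes, with a median of -0.67. Against MEF, 6 turnover genes were lower and 1 higher in ESC (20.6% and 22.4% of all genes), and 5 lower and 1 higher in iPSC (19.7% and 20.2%). Of 9 integrin genes tested from a list of 10, 7 fell (median -2.47), including Itgav (-2.71) and Itgb1 (-2.47), subunits of fibronectin and vitronectin receptors, and all 9 tested were lower in ESC and in iPSC than in MEF (20.6% and 19.7% of all genes). Itgb1 was at 21544, the highest value the scale holds, in both OSK day 0 libraries and in 1 cJun library of day 7, so its folds are set against a capped value. With shSap30, 5 integrin genes were higher than on OSK day 7 (4.93% of all genes), among them Itga4 (2.49, adjusted p 0.000192) and Itgav (2.03, adjusted p 7.95e-05). With cJun on day 7, 3 were higher (6.76% of all genes), Itgb3 (2.94), Itgb1 (2.02) and Itgav (1.64).

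**Figure D4:**
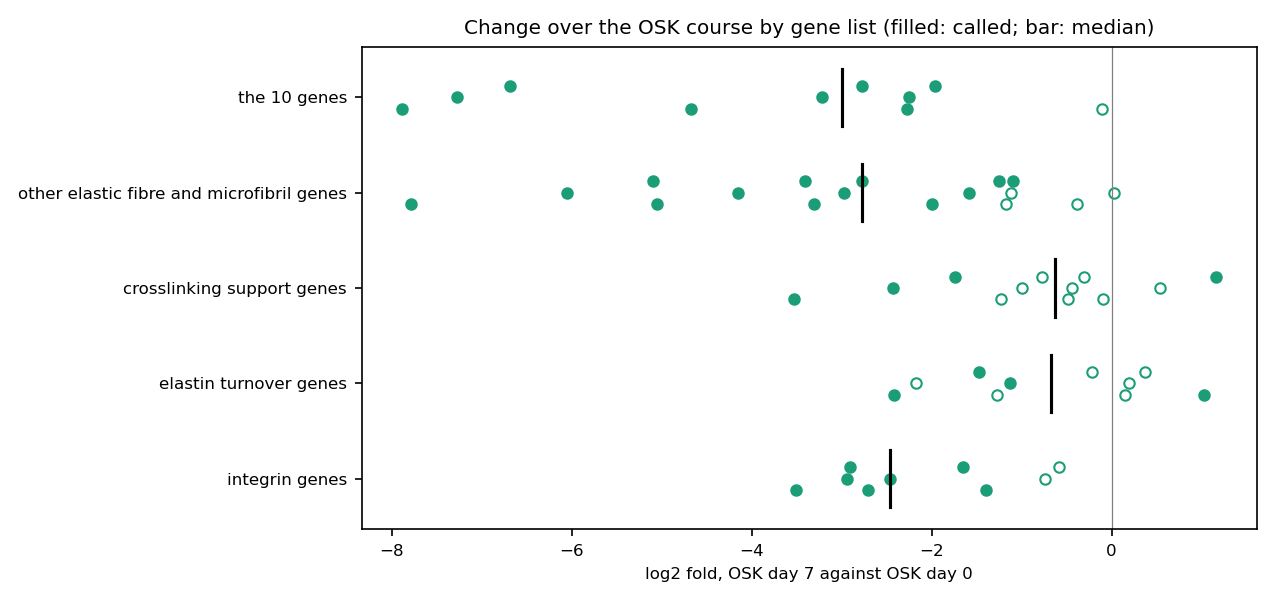
Log2 fold of OSK day 7 against day 0 for the tested genes of each list (1 point per gene, filled where called, black bar at the list's median). The 10 genes (median -2.99), other elastic fibre genes (-2.78) and integrin genes (-2.47) lie further left than crosslinking support (-0.63) and elastin turnover genes (-0.67).

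Most pairs of the 10 genes varied together, and those with Fbln1 did so least by their median. Over the 13 group means of log2 value, the 36 pairs without Fbln1 had correlations from 0.30 to 0.95 (median 0.81), and the 9 pairs with Fbln1 from -0.28 to 0.61 (median 0.24). The lowest of the 36 was Eln with Fbn1 (0.30), below Eln with Fbln1 (0.61). The comparisons between genes share libraries and a scale forced to one distribution, so the correlations are a description. Over the 26 libraries, the gene most like Lox was Bgn (r = 0.967), that most like Loxl1 was Col12a1 (0.967), and that most like Loxl2 was Adamts12 (0.972). The nearest for the others were Crispld2 for Eln (0.912), Selenon for Fbn1 (0.978), Mrc2 for Fbln2 (0.963), Cpne1 for Fbln5 (0.952), Cdh11 for Emilin1 (0.975), Dab2 for Loxl3 (0.941) and Pstk for Fbln1 (0.869).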

How the data were processed

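Per the labels' protocols, TRIzol RNA and a TruSeq RNA kit were used, with sequencing on a NextSeq 500. The submitters' processing notes name the genome mm10 and the tools RSEM, Bowtie2 and bcl2fastq, with roles and versions not given in the sources used here. The values deposited by the authors are a normalised score in whole numbers, not counts: at each rank the 26 libraries differ by at most 2, and totals run from 4619641 to 4624161. Depth is therefore unknown, and no interval that needs it is given. Of 18198 gene identifiers, 18039 matched a GRCm38 symbol, and 0 sample columns were left unused.

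Values plus 1 were taken to log2, and limma 3.58.1 (R 4.3.3, statmod 1.5.0), with variance trend and robust moderation, was used on the 26 libraries together, each group having its own mean. Genes that reached 10 in 2 or more libraries, 16038 in all, were tested, with Benjamini-Hochberg adjustment over all of them, and every adjusted p is from limma. Calls needed an adjusted p below 0.05 and a change of 1 or more on the log2 scale, and only called genes are said to rise, fall or be higher or lower. A count test was not used because the unit is a score. Fold changes are on the log2(value + 1) scale, which understates those of low genes. P-values measure only the spread between these libraries, which may be technical. The fit was tested on simulated data with independent noise. Those data had neither the forced common distribution nor the shared steps of the scores, so the test does not cover these features. Tables and figures were made with pandas 2.3.3 and matplotlib 3.10.9 in Python 3.11.15.

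The genes and lists were chosen with earlier results of these data known. All 10 genes are described. From each further list, up to 4 called genes with the smallest adjusted p per comparison could be named (the 2 highest-valued where none was called), and for likeness the genes with the highest Pearson correlation outside Gm, Rik and pseudogene symbols. Clauses on gene function are background. Alternatives were the pseudocount, the filter, the libraries fitted, the moderation, centring on housekeeping genes, a replicate block and leaving out each library.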

Additional observations from a re-analysis of the deposited data

Results flagged for a closer look

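The change from day 0 to day 7 differed between the courses with and without cJun for Fbln5, by 4.60 on the log2 scale (standard error 0.861, adjusted p from limma 0.00764). Fbln5 went from 4308 and 6929 to 700 and 453 with cJun, and from 6124 and 11668 to 55 and 22 without it. On day 7 both libraries with cJun were above both without (log2 fold 3.97). On day 0 the libraries overlapped, with means of 5618 with cJun and 8896 without (log2 fold -0.63, not called). This day 0 difference also enters the 4.60.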

How the results depend on the processing

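Counts of called genes among the 10 moved by more than 1.5 times in 8 comparisons. With a pseudocount of 10 they became 3 for OSK day 0 against MEF (1 in the main result), 4 for OSK day 1 against day 0 (2), 2 for cJun on day 3 (1) and 2 for shSap30 (1). With only the compared libraries they became 2, 4, 4 and 0 for these, 1 for OSK day 7 against day 3 (3), 1 for cJun on day 1 (0) and 2 for the interaction (1). Without the OSK day 5 libraries they became 1 for cJun on day 1, 2 for cJun on day 3, 3 for shSap30 and 2 for the interaction. Without trend or robust moderation, 2 were called from OSK day 1 to day 3 (4). Leaving out 1 library at a time gave 1 to 2 for OSK day 0 against MEF, 1 to 2 for day 1 against day 0, 2 to 3 for day 3 against day 1, 0 to 3 for day 7 against day 3, 0 to 1 for cJun on day 3 and 0 to 1 for shSap30. The cause of these moves was not tested.

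The labels give replicates only a number, so the numbers were not taken as pairs in the main fit. Over 78 pairs of groups the correlation of replicate differences ran from -0.0883 to 0.331, with 28 over 0.1 and 0 under -0.1. Larger correlations were thus on the positive side only, and whether replicates of the same number share a batch was not tested. With the replicate block, 2 genes were called for OSK day 0 against MEF and 2 for shSap30, and the other counts stayed within 1.5 times of the main ones. It called Fbln2 for OSK day 0 against MEF (adjusted p 0.026), Fbn1 from OSK day 1 to day 3 (0.0453), Loxl3 with cJun on day 7 (0.00854) and Fbln1 with shSap30 (0.0484). None of these was called in the main fit, and each was also called under another alternative. The macrophage marker Lyz2, singled out after its values were seen, was higher in replicate 1 on day 0 of both courses (461 and 49, 361 and 34) and lower in replicate 1 of MEF (47 and 915).

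Of 1951 values of the 10 genes under the alternatives, 41 lost and 44 gained a call, none changed sign while called, and 44 changed sign while uncalled (3 with centring, 41 with a library left out). Centring on 9 housekeeping genes moved the median of all genes to between -0.404 and 0.218. The share of calls that were higher went from 52% to 36.5% for ESC against MEF, 50.6% to 32.4% for iPSC against MEF, 50.5% to 28.5% for OSK day 1 against day 0, 44.5% to 30.2% for day 7 against day 3 and 47.3% to 26.4% for day 7 against day 0. It went from 62.6% to 72.8% for cJun on day 1, 57.4% to 68.8% on day 7, 50.3% to 36.7% within OSK-cJun, 50.1% to 71.7% for shSap30 and 64.4% to 79.5% for the interaction. With only the compared libraries, calls over all genes were 288 higher and 148 lower for OSK day 0 against MEF (789 and 331 in the main result), 221 and 230 for OSK day 7 against day 3 (541 and 675), 152 and 53 for cJun on day 1 (199 and 119), 701 and 494 on day 7 (1084 and 806), 243 and 182 for shSap30 (791 and 789), 259 and 109 for the interaction (395 and 218), and 0 for cJun on day 0 (12), where 824 had an unadjusted p below 0.05.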
